A study of Mus musculus with 21 samples.

Results

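The 10 genes described here encode proteins that form, limit or dissolve a blood clot: the fibrinogen chain genes Fga, Fgb and Fgg, the procoagulant genes F2, F3, F5 and F10, the anticoagulant genes Proc and Thbd, and the plasminogen gene Plg. They were chosen by name, and all 10 were found among the 46517 mouse genes of the count table. RNA was measured in left ventricle from C57BL/6J mice aged 10 to 14 months. The control group was 4 Notch3+/+ mice and the other group 3 Notch3-/- mice, which carry a constitutive lacZ insertion in the Notch3 locus; the sex of the mice was not given. Each mouse was sequenced as 3 technical libraries, 21 in all, which were summed within the mouse, so that the mouse is the replicate.

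Clotting factors circulate as inactive precursors, most of them secreted by hepatocytes. Tissue factor, the product of F3, is instead a membrane protein of cells around vessels and of heart muscle, and starts the cascade when blood reaches it. Factor X and its cofactor factor V then convert prothrombin to thrombin, and thrombin cuts fibrinogen to fibrin. Thrombomodulin, the product of Thbd, sits on endothelium and turns thrombin towards activating protein C, while plasmin made from plasminogen dissolves fibrin.

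The summed depth was 3046326 to 5167869 counts per mouse, and single libraries held 464390 to 2427783 counts. Notch3 itself was at 42.1 to 61.8 CPM (counts per 1000000 counts, scaled between mice by the TMM factors of edgeR) in the control mice and at 4.73 to 7.57 CPM in the Notch3-/- mice. The cardiomyocyte markers summed to 20827 to 28531 CPM in control and 18706 to 28502 CPM in Notch3-/- mice, so the labelled tissue was present in each. Control mice 1 and 2 carry sample names beginning with X, while control mice 3 and 4 and the 3 Notch3-/- mice carry names beginning with k. Notch3-/- mice 1 and 2 stood apart from the other 5 mice by markers of hepatocytes: 20 such genes summed to 6086 and 11719 CPM in them, against 13.4 to 164 CPM in the control mice and 151 CPM in Notch3-/- mouse 3. No hepatocyte marker was at 0 in all 4 control mice. Results that rest on Notch3-/- mice 1 and 2 are therefore given mouse by mouse below.

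The 3 fibrinogen genes lie together on chromosome 3, at chr3:83007724-83049863 of the mouse assembly GRCm38 (mm10), a stretch of 42140 bases with Fgg and Fga on the plus strand and Fgb on the minus strand. Because these 3 genes had similar levels over the mice while F3, on the same chromosome, differed from them, the sequence before their starts is shown with that of F3. RefSeq promoter windows (GRCm38.p6) were matched for 7 of the 10 genes, namely Fga, Fgb, Fgg, F2, F5, F10 and F3, and Plg, Proc and Thbd had no entry. Capitals mark matches to 5 short motifs, searched on both strands over the 250 bases before the start. These were GTTAAT, a site of the hepatocyte factor HNF1 (one arm of its palindrome); TTGCNNAA for C/EBP factors; CTGGGAA, an element of interleukin-6 response; TGAGTCA for AP-1; and GGGCGG for Sp1. The matches shown do not overlap each other. Fga was shown from 200 to 78 bases before its RefSeq start (chr3:83025953-83026075, plus strand), and a 30-base piece around its HNF1 site, which lies within the GENCODE span of Fga, is given separately (chr3:83026098-83026127). Fgb was shown for 150 bases (chr3:83049864-83050013, minus strand), Fgg for 120 bases (chr3:83007604-83007723, plus strand) and F3 for 150 bases (chr3:121723387-121723536, plus strand).
Fga, upstream: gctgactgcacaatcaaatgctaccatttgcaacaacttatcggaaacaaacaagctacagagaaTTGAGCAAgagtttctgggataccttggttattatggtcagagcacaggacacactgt
Fga, HNF1 site: ccaagggtgatgATTAACctcctgccggtt
Fgb, upstream: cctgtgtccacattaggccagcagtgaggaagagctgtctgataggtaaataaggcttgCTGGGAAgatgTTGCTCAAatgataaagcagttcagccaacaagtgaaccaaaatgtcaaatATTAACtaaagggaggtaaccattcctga
Fgg, upstream: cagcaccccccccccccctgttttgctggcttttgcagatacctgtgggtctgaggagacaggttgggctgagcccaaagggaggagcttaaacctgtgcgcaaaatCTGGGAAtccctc
F3, upstream: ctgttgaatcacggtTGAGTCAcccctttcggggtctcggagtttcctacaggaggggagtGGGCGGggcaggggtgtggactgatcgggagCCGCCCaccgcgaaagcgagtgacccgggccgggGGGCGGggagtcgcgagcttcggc

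The HNF1 letters were found before Fga, 43 bases upstream of its RefSeq start but inside the GENCODE span of the gene, which begins further upstream, and before Fgb, 29 bases upstream, and 6.43% of the 32851 mouse promoter windows hold it. The C/EBP letters were found before the same pair of genes, 135 and 80 bases upstream, and in 9.56% of all windows. The interleukin-6 element was found 91 bases before Fgb and 13 bases before Fgg, and in 9.1% of all windows. F3 had 3 Sp1 matches, 89, 58 and 24 bases upstream, and F5 had 1 at 177 bases; 32.7% of windows hold those letters. The AP-1 letters, in 4.46% of windows, were found 135 bases before F3 and 173 bases before Fgb, beyond the stretch printed for Fgb. F2 and F10 held none of these motifs in their windows. The letters TATAAA of the TATA box, also searched, were in none of the 7 windows and in 12.4% of all windows. These matches are descriptions of letters and no test of binding was made.

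The comparison of genotypes addressed whether the heart's clotting genes differ when Notch3 is lost. The 8 genes known chiefly as liver products (Fga, Fgb, Fgg, F2, F5, F10, Proc and Plg) were at a trace level in the control hearts and at high levels in Notch3-/- mice 1 and 2, but not in Notch3-/- mouse 3. Their summed level was 2.82 to 24.9 CPM in the control mice, 1831 and 4454 CPM in Notch3-/- mice 1 and 2, and 19.7 CPM in Notch3-/- mouse 3, inside the range of the control mice. F3 and Thbd, which encode membrane proteins of heart and vessel cells, overlapped between the genotypes. In bulk tissue, fewer cells of a type and less RNA per cell cannot be told apart, and neither can more cells of a type and more RNA per cell.

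**Figure D1:**
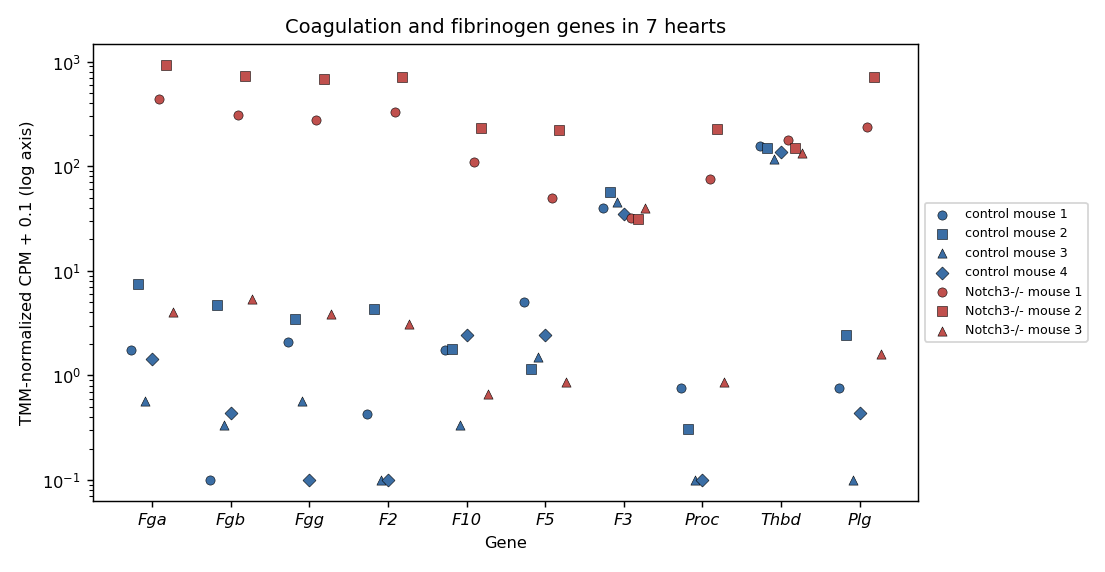
TMM-normalized CPM plus 0.1 (log axis) of the 10 genes in each of 4 control mice (blue) and 3 Notch3-/- mice (red); points at the lower edge are counts of 0. The circles and squares of Notch3-/- mice 1 and 2 stand far above all control mice for 8 genes, the triangle of mouse 3 lies among or near the control mice, and F3 and Thbd group tightly.

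Fga (ENSMUSG00000028001, chr3:83026076-83033627, 6 exons) encodes the fibrinogen alpha chain. Its level was 1.65, 7.38, 0.471 and 1.34 CPM in control mice 1 to 4 (5, 35, 2 and 4 counts). In Notch3-/- mice 1 to 3 it was 442, 935 and 3.97 CPM (1618, 4446 and 21 counts). The groups overlapped because Notch3-/- mouse 3 lay below control mouse 2. The group means were 2.71 ± 3.15 (SD, n = 4) and 460 ± 466 CPM (SD, n = 3). The log2 fold change was 7.28 ± 1.41 (SE), with an adjusted p of 0.118 in the quasi-likelihood test of edgeR, adjusted by Benjamini-Hochberg over 14324 genes.

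Fgb (ENSMUSG00000033831, chr3:83040141-83049863, 8 exons) encodes the beta chain. Control mice 1 to 4 had 0, 22, 1 and 1 counts, or 0, 4.64, 0.235 and 0.334 CPM. The values of Notch3-/- mice 1 to 3 were 307, 723 and 5.29 CPM (1123, 3438 and 28 counts). Here the groups did not overlap, although Notch3-/- mouse 3 exceeded control mouse 2 by little. The log2 fold change was 7.80 ± 1.45 (SE; edgeR, Benjamini-Hochberg adjusted p = 0.118).

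Fgg (ENSMUSG00000033860, chr3:83007724-83015049, 10 exons) encodes the gamma chain. It was at 1.98, 3.37, 0.471 and 0 CPM in control mice 1 to 4 (6, 16, 2 and 0 counts). In Notch3-/- mice 1 to 3 it was at 280, 683 and 3.78 CPM (1024, 3249 and 20 counts), again without overlap and with mouse 3 only just above control mouse 2. Its log2 fold change was 7.66 ± 1.42 (SE; edgeR, Benjamini-Hochberg adjusted p = 0.118). Fgg shares 765 bases with Gm30097 on the opposite strand, and the use of strand in counting was not stated, so reads of the pair cannot be told apart. Gm30097 itself had 0 to 3 counts in the control mice and 87, 337 and 2 in Notch3-/- mice 1 to 3; it was picked out after its values were seen.

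F2 (ENSMUSG00000027249, chr2:91625320-91636414, 14 exons) encodes prothrombin. Control mice 1 to 4 had 1, 20, 0 and 0 counts (0.329, 4.21, 0 and 0 CPM). Counts in Notch3-/- mice 1 to 3 were 1203, 3413 and 16 (329, 718 and 3.03 CPM), and mouse 3 lay below control mouse 2. The log2 fold change of F2 was 8.00 ± 1.55 (SE; edgeR, Benjamini-Hochberg adjusted p = 0.118).

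F10 (ENSMUSG00000031444, chr8:13037308-13056676, 9 exons) encodes factor X, the protease of prothrombin activation. It was at 1.65, 1.69, 0.235 and 2.34 CPM in control mice 1 to 4. The level in Notch3-/- mice 1 to 3 was 110, 233 and 0.567 CPM (404, 1108 and 3 counts). Mouse 3 was below 3 of the 4 control mice. F10 did not pass the filter on low counts, which asks for a minimum level in as many mice as the smaller group holds, and so had no value in the test over all 7 mice with that filter; its fold change without the filter is given below.

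F5 (ENSMUSG00000026579, chr1:164151838-164220277, 25 exons) encodes factor V, which is made by hepatocytes and also carried in platelets. Its levels were 4.94, 1.05, 1.41 and 2.34 CPM in control mice 1 to 4 (15, 5, 6 and 7 counts). In Notch3-/- mice 1 to 3 they were 49.5, 222 and 0.756 CPM (181, 1054 and 4 counts). Notch3-/- mouse 3 was the lowest of all 7 mice, at 0.344 of the pooled control level (95% interval of the counts 0.0886 to 0.968). The log2 fold change was 5.30 ± 1.28 (SE; edgeR, Benjamini-Hochberg adjusted p = 0.170). The 9 platelet and megakaryocyte markers summed to 31.5 to 46.1 CPM in control and 23.2 to 28.7 CPM in Notch3-/- mice (only 3 of the 9 passed the filter); their part in the values of F5 was not tested. F5 shares 380 bases with Gm16548 on the opposite strand, which had 1 or 2 counts per control heart, against 12, 108 and 1 in Notch3-/- mice 1 to 3, and 355 bases with Gm16588 on its own strand, at 1 to 6 counts in all mice; both were picked out by position.

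Proc (ENSMUSG00000024386, chromosome 18, minus strand, 9 exons) encodes protein C, which with its cofactor inactivates factors V and VIII. It had only 3 counts over the 4 control mice (2, 1, 0 and 0) and 279, 1076 and 4 in Notch3-/- mice 1 to 3, or 76.2, 226 and 0.756 CPM. The groups did not overlap, but the separation of mouse 3 rested on 4 counts. Against the pooled control counts the ratio was 382 (95% interval of the counts 129 to 1863) in mouse 1 and 1134 (387 to 5506) in mouse 2. In mouse 3 it was 3.79 (0.641 to 25.9), an interval that includes 1.

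Plg (ENSMUSG00000059481, chr17:12378608-12419385, 19 exons) encodes plasminogen. Control mice 1 to 4 had 2, 11, 0 and 1 counts, and Notch3-/- mice 1 to 3 had 867, 3390 and 8 counts, or 237, 713 and 1.51 CPM. Mouse 3 lay below control mouse 2. Plg shares 426 bases with Slc22a3 on the opposite strand, a gene expressed in the control hearts at 54 to 118 counts and at 39, 65 and 109 counts in Notch3-/- mice 1 to 3. The high counts of Plg in mice 1 and 2 had no counterpart in Slc22a3.

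Counting error was small beside these differences in mice 1 and 2 and not in mouse 3. Relative to pooled control counts, the 8 genes were 22.5 times (F5) to 382 times (Proc) higher in Notch3-/- mouse 1 and 101 times (F5) to 1134 times (Proc) higher in mouse 2. In mouse 3 the interval lay above 1 for Fgb (ratio 3.32, 1.85 to 5.97), Fgg (2.37, 1.24 to 4.47) and F2 (2.17, 1.06 to 4.35). It included 1 for Fga, F10, Proc and Plg, and lay below 1 for F5. These intervals cover counting error only. The spread between control mice is wider than that, since control mouse 2 alone gave 20 of the 21 control counts of F2 and 22 of the 24 of Fgb.

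The technical libraries showed the same split. In Notch3-/- mouse 1 the 8 genes summed to 1707 to 1934 CPM in its 3 libraries, and in mouse 2 to 4123 to 4486 CPM. The libraries of Notch3-/- mouse 3 were at 9.06, 10.8 and 28.9 CPM, and library 3 held 78 of its 104 counts. The 12 control libraries ranged from 2.14 to 41.1 CPM, with the highest in control mouse 2. Fgb was at 0 in 7 of the 12 control libraries, F2 in 8 and Proc in 10.

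**Figure D2:**
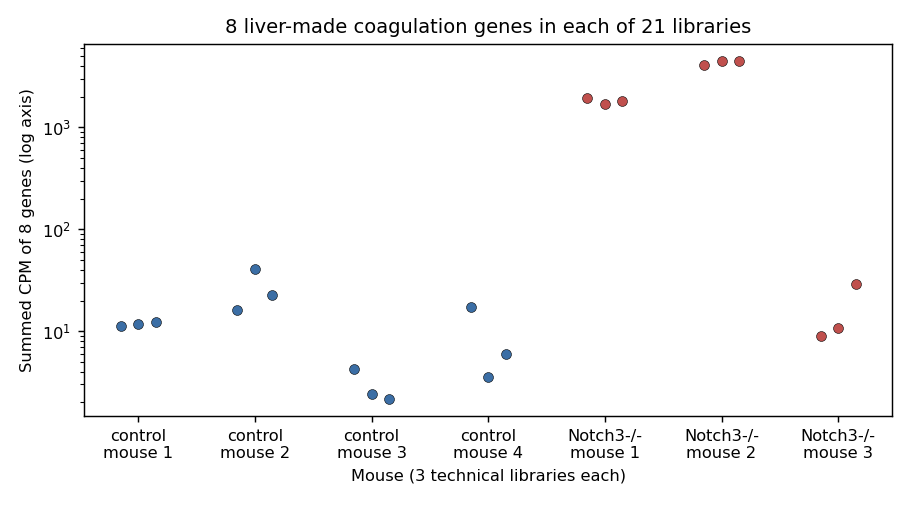
Summed CPM (log axis) of the 8 liver-made genes in each technical library, 3 points per mouse, control in blue and Notch3-/- in red. The 6 libraries of Notch3-/- mice 1 and 2 lie far above all others, from 1707 to 4486 CPM, and the 3 libraries of Notch3-/- mouse 3, from 9.06 to 28.9 CPM, fall within the 2.14 to 41.1 CPM of the control libraries.

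F3 (ENSMUSG00000028128, chr3:121723537-121735048, 6 exons) encodes tissue factor. It was at 39.5, 57.1, 45.9 and 35.1 CPM in control mice 1 to 4 (120, 271, 195 and 105 counts). Notch3-/- mice 1 to 3 had 32.2, 31.3 and 39.7 CPM (118, 149 and 210 counts). Mice 1 and 2 lay below every control mouse, while mouse 3 lay between control mice 1 and 3, so the groups overlapped. The means were 44.4 ± 9.57 (SD, n = 4) and 34.4 ± 4.59 CPM (SD, n = 3). The log2 fold change of -0.37 ± 0.20 (SE) did not pass the test, with an unadjusted p of 0.0889 and a Benjamini-Hochberg adjusted p of 0.546 in edgeR. Among the mice whose names begin with k alone, it was -0.24.

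Tissue factor was also read against the markers of 3 cell types. Per 1000 counts of fibroblast markers, F3 had 33.0 to 52.8 counts in control mice and 30.7 to 32.04 in Notch3-/- mice. Against cardiomyocyte markers the values were 1.29 to 2.74 and 1.13 to 1.95. Against endothelial markers they were 21.7 to 52.3 and 20.9 to 27.2. The groups overlapped against the last 2 lists. Against fibroblast markers they did not, but by a narrow margin, 32.04 against 33.0. Notch3-/- mouse 3, inside the control range of F3 CPM, had the highest fibroblast marker sum, at 1240 CPM against 968 to 1196 CPM in control mice. Of the 7 fibroblast markers, 2 were higher and 1 lower in Notch3-/- mice at an unadjusted p below 0.05 in edgeR. No test was made of these ratios, and the share of all genes that separate on this basis was not determined.

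Thbd (ENSMUSG00000074743, chr2:148404466-148408188, a single exon) encodes thrombomodulin. It was at 157, 149, 117 and 138 CPM in control mice 1 to 4 and at 178, 150 and 133 CPM in Notch3-/- mice 1 to 3. The highest value was that of Notch3-/- mouse 1 and the lowest that of control mouse 3, with the other mice mixed between them. The means were 140 ± 17.5 (SD, n = 4) and 154 ± 22.9 CPM (SD, n = 3), and the log2 fold change was 0.13 ± 0.15 (SE; edgeR, unadjusted p = 0.419, Benjamini-Hochberg adjusted p = 0.818). Among the mice whose names begin with k, the log2 fold change was 0.26. The 10 endothelial markers summed to 1092 to 1613 CPM in control and 1393 to 1498 CPM in Notch3-/- mice, and per 1000 of their counts Thbd had 85.7 to 137 and 91.1 to 128 counts. The CPM values of F3 and Thbd overlapped between the genotypes and neither gene passed the test, which does not show that the genotypes were alike.

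**Figure D3:**
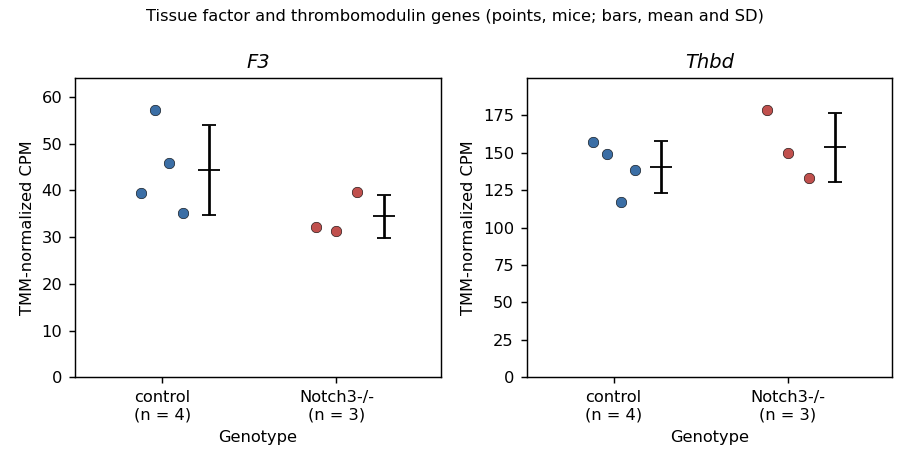
TMM-normalized CPM of F3 and Thbd (axes from 0) in each control mouse (blue, n = 4) and Notch3-/- mouse (red, n = 3), with the mean and SD as bars beside the points. F3 has means of 44.4 and 34.4 CPM and Thbd of 140 and 154 CPM, and the groups overlap for both genes.

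Per kilobase of the principal transcript, which allows levels of different genes to be compared, Thbd was the highest of the 10 genes in every control mouse, at 31.4 to 42.2 CPM per kb, followed by F3 at 18.7 to 30.5; the technical libraries of the pair overlapped in control mice 2 and 3. The highest value of any liver-made member in a control mouse was 2.85 CPM per kb, for Fga in control mouse 2. Notch3-/- mouse 3 had that same order, with Thbd at 35.7, F3 at 21.2 and Fgg next at 2.23 CPM per kb. In Notch3-/- mouse 1 the order was led by Fga at 171, F2 at 165.4 and Fgg at 165.1 CPM per kb, whose technical libraries overlapped. Plg at 85.9 and Fgb at 80.5 came next and also overlapped, as did Proc at 48.4, Thbd at 47.9 and F10 at 44.1. F3 at 17.2 and F5 at 6.66 were lowest. In Notch3-/- mouse 2 Fgg led at 403 CPM per kb, Fga and F2 followed at 361.5 and 361.1, and Plg at 259, Fgb at 190, Proc at 144 and F10 at 93.1 all exceeded Thbd at 40.2. This order depends on the length used: with the length of all annotated exons, chosen after seeing the data, F2 was at 71.6 CPM per kb in mouse 1 and 156 in mouse 2, below Fgb at 80.5 and 190, while Fga and Fgg still led in both mice. Proc was then at 30.8 and 91.3 CPM per kb.

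The fibrinogen chains are joined as pairs of 3 different chains, so their proportions were compared in Notch3-/- mice 1 and 2, the mice with enough counts. Fga took 43.0% of the 3765 fibrinogen counts in mouse 1 (95% exact binomial interval 41.4 to 44.6) and 39.9% of the 11133 in mouse 2 (39.0 to 40.9). Fgb took 29.8% and 30.9%, and Fgg 27.2% and 29.2%. Per kilobase of principal transcript the shares of Fga, Fgb and Fgg were 41.0%, 19.3% and 39.6% in mouse 1 and 37.9%, 19.9% and 42.2% in mouse 2. Fgb was thus the lowest chain per length in both mice. With the length of all annotated exons, an alternative chosen after seeing the data, Fgb was at 22.3% and 23.0% and remained the lowest. Fgb has 3810 bases by either measure, so this alternative changed only the lengths of Fga and Fgg. It is therefore no check on the length of Fgb. By counts alone, Fgb was above Fgg in both mice.

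In the test over all genes, with a call set at an adjusted p below 0.05 and a fold of at least 1.5, none of the 7 members tested was called by edgeR. In that test 0% of the 14324 genes were called as higher in Notch3-/- mice, and Notch3 was the only gene called at all. At an unadjusted p below 0.05, 5 of the 7 members (Fga, Fgb, Fgg, F2 and F5) were higher and none was lower, against 7.34% of all genes higher and 3.05% lower. A gene at a trace level in control hearts can pass the filter only through the mice in which it is high, so these counts are a description. Every Notch3-/- mouse exceeded every control mouse for 2 of the 7 members tested (Fgb and Fgg), against 4.57% of genes tested, and also for Proc, which was not tested. Taken singly, Notch3-/- mouse 1 exceeded all control mice for 6 of the 7 members tested (23.9% of genes tested), mouse 2 for 5 (29.3%) and mouse 3 for 2 (20.1%). The members are not independent observations, since the liver-made genes shared their high and low mice.

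The calls changed with Notch3-/- mouse 3 left out and with the filter on low counts dropped. Without that mouse, edgeR called all 8 liver-made members as higher (Benjamini-Hochberg adjusted p from 1.32e-05 to 0.000208), against 6.02% of genes. That mouse was the only Notch3-/- mouse with these genes at or near the control level. F10, Proc and Plg, filtered out when it was kept, then passed the filter only through the mice in which they were high. This count is therefore a description. DESeq2 on all 7 mice, run without the filter, also called those 8 (adjusted p from 0.000386 to 0.0113), against 3.37% of genes with an adjusted p. With every gene that had at least 1 count kept, edgeR called the same 8 of 10, against 2.18% of 28790 genes. This fit gave the log2 fold changes of the 3 members that had not passed the filter. They were 6.27 for F10, 8.74 for Proc and 8.36 for Plg (edgeR, adjusted p = 0.00347, 0.00275 and 0.00275). With a mean of at least 10 counts as the filter, they were 6.30, 8.77 and 8.39 (edgeR, adjusted p = 0.118 each), and no member was called. In the mice whose names begin with k alone, 2 control against 3 Notch3-/-, none was called (adjusted p of 0.734 for the 8 genes), with log2 fold changes from 5.60 for F5 to 13.51 for F2; control mice 3 and 4 had no F2 count at all, so that last value depends on the prior count of the fit. Single mice also moved the size of the fold. Without Notch3-/- mouse 2 the log2 fold changes fell to 6.21 for Fga, 6.62 for Fgb, 6.46 for Fgg, 6.89 for F2 and 3.40 for F5, and without control mouse 2 they were 8.67, 10.56, 8.61, 11.39 and 4.99. In limma-voom on mice F5 was at 3.19 and Fga at 5.81. Over all alternatives, the adjusted p of Fga ranged from 2.52e-05 to 0.734, and no member changed direction in any setting in which it was fitted.

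The liver-made members moved with the hepatocyte markers in the same mice. In both Notch3-/- mice 1 and 2 all 20 markers were above the whole control range, as were 9 of the 20 in mouse 3. Markers of liver sinusoid and Kupffer cells summed to 15.5 to 23.6 CPM in control mice and to 87.2, 118 and 29.5 CPM in Notch3-/- mice 1 to 3. The part of hepatocyte RNA in the differences of the coagulation genes was not tested.

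The 8 members were also expressed as a share of their own counts plus those of the 20 hepatocyte markers. This share was 18.0% in control mouse 1 (95% exact binomial interval 12.9 to 24.0), 13.2% in control mouse 2 (11.04 to 15.6) and 18.3% in control mouse 4 (11.6 to 26.9); control mouse 3 had only 69 such counts. It was 23.1% in Notch3-/- mouse 1 (22.6 to 23.6), 27.5% in mouse 2 (27.2 to 27.9) and 11.6% in mouse 3 (9.54 to 13.8). Mice 1 and 2 were thus above control mouse 2 and Notch3-/- mouse 3 by more than counting error. Abundant transcripts weigh in this share: Alb, the albumin gene, reached 66.2% of the highest counts per exon base of any gene, Fgg 28.5% and Fga 26.6%. When only genes at or below 25% of that highest value were kept (6 members and 9 markers, a choice made after seeing the data), the share was 43.8% in control mouse 2 (35.8 to 52.0) and 43.3%, 39.0% and 37.5% in Notch3-/- mice 1 to 3. Control mice 1, 3 and 4, with only 49, 16 and 27 such counts, were at 51.02%, 50.0% and 59.3%. On that basis all 3 Notch3-/- mice were below all 4 control mice, but the interval of each control mouse overlapped that of every Notch3-/- mouse.

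**Figure D4:**
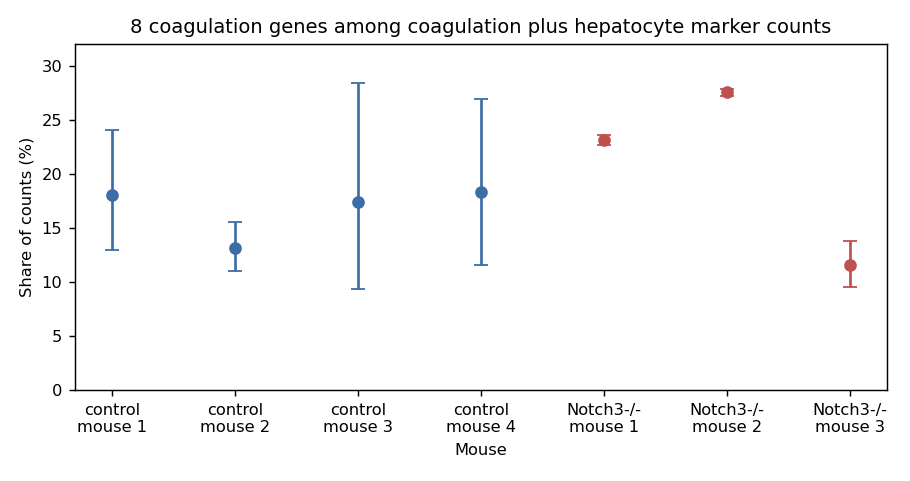
Share (%) of the 8 liver-made coagulation genes in their counts plus those of 20 hepatocyte markers, for each control (blue) and Notch3-/- mouse (red), with 95% exact binomial intervals for counting error. Notch3-/- mice 1 and 2, at 23.1% and 27.5%, lie above Notch3-/- mouse 3 at 11.6% and control mouse 2 at 13.2%; control mouse 3 rests on 69 counts.

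Single members kept different proportions to the hepatocyte markers. Fga had 72.6 counts per 1000 marker counts in Notch3-/- mouse 1 (95% interval 69.0 to 76.4) and 79.8 in mouse 2 (77.4 to 82.3), and F2 had 54.01 and 61.3. Plg had 38.9 (36.3 to 41.7) and 60.8 (58.8 to 63.0), F5 had 8.13 (6.98 to 9.41) and 18.9 (17.8 to 20.1), and Proc had 12.5 (11.1 to 14.1) and 19.3 (18.2 to 20.5). F10 was nearest to equal, at 18.1 (16.4 to 20.02) and 19.9 (18.7 to 21.1). Against the full marker list, 7 of the 8 genes were thus higher in mouse 2 than in mouse 1 by more than counting error. The intervals of F10 overlapped. The technical libraries of one mouse also varied by more than counting error. Their chi-square per degree of freedom over all genes was 5.59 in mouse 1 and 2.10 in mouse 2. These intervals are therefore too narrow for a comparison of mice. The abundant markers weigh in these values too. With the abundant genes left out as above, the order of these mice reversed for the sum of the 6 members kept, which exclude Fga and Fgg. Their share was then 43.3% in Notch3-/- mouse 1 (42.3 to 44.3) and 39.0% in mouse 2 (38.4 to 39.5). The direction between these mice thus depended on the genes used. In the control mice F5 was at 91.5, 6.44, 105 and 78.7 per 1000 marker counts, so 3 of the 4 control hearts held far more F5 per hepatocyte marker than any Notch3-/- heart, the highest of which was 18.9.

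The genes most like each member over the 21 libraries were searched among 12515 genes outside the coagulation lists, by Pearson's r of log2 CPM. These correlations describe the libraries, which share mice and depth, and carry no test. Fga was nearest to Apoa5 (r = 0.993), Fgb to Uox (0.993), Fgg to Hpd (0.995), F2 to Mat1a (0.993), Plg to Apoa5 (0.993) and Proc to Slc10a1 (0.990). F10 was nearest to Ahcy (0.973) and F5 to Fasn (0.967), both below the values of the other liver-made members. F3 was nearest to Crebrf (0.830) and Thbd to Fut11 (0.766), well below all 8.

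Of 41 other coagulation genes listed by role, 40 were found (Klkb1 was not matched) and 24 passed the filter. At an unadjusted p below 0.05 in edgeR, 9 of the 24 were higher in Notch3-/- mice and none was lower, against the 7.34% and 3.05% of all genes given above, and none was called after adjustment. Of the 24 genes tested, Notch3-/- mice 1, 2 and 3 exceeded all control mice for 15, 19 and 8, against 23.9%, 29.3% and 20.1% of all genes tested, and all 3 did so for 5, against 4.57%. As with the members, a gene at a trace level in control hearts can pass the filter only through the mice in which it is high. These counts are therefore a description, and the genes are not independent observations.

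In the intrinsic and contact pathway, Kng1, the kininogen gene, was at 0.659, 2.95, 0 and 0 CPM in control mice 1 to 4 and at 211, 492 and 1.32 CPM in Notch3-/- mice 1 to 3, with a log2 fold change of 7.79 ± 1.55 (SE; edgeR, Benjamini-Hochberg adjusted p = 0.118). Vwf, the von Willebrand factor gene of endothelium, was at 142, 123, 84.7 and 52.1 CPM in control and 118, 89.8 and 72.2 CPM in Notch3-/- mice, with full overlap (log2 fold change -0.11 ± 0.31). F8, the factor VIII gene, named after its values were seen, was at 5.65 to 8.22 CPM in control mice. It was at 10.1, 15.8 and 13.6 CPM in Notch3-/- mice 1 to 3, each above every control mouse, as in 4.57% of genes tested. Its log2 fold change was 0.94 ± 0.27 (SE; edgeR, unadjusted p = 0.00655, Benjamini-Hochberg adjusted p = 0.2545). The intrinsic factor genes F9 and F11 had no count in any control mouse. F9 was at 24.3, 95.3 and 0.378 CPM in Notch3-/- mice 1 to 3, on average at least 200-fold higher than the level of 3 counts over the pooled control mice, and at least 61.9-fold without mouse 2. F11 was at 3.28, 24.4 and 0 CPM, at least 46.2-fold higher and at least 8.21-fold without mouse 2. Among the extrinsic and crosslinking genes, F13b, the carrier subunit of factor XIII, likewise had no control count and was at 30.9, 109 and 0 CPM, at least 234-fold higher and at least 77.3-fold without mouse 2; F9, F11 and F13b were named for their absence from the control mice, after their values were seen. F13a1, the catalytic subunit made by macrophages and megakaryocytes, was at 40.7 to 66.2 CPM in control and 56.8 to 71.1 CPM in Notch3-/- mice (log2 fold change 0.20 ± 0.19).

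Among the inhibitors, Serpind1, the heparin cofactor gene, was at 0.941 to 3.01 CPM in control mice and at 72.7, 244 and 1.70 CPM in Notch3-/- mice 1 to 3 (log2 fold change 5.66 ± 1.20; edgeR, Benjamini-Hochberg adjusted p = 0.136). Serping1, the C1 inhibitor gene, was at 206 to 242 CPM in control and at 228, 439 and 238 CPM in Notch3-/- mice, with mouse 2 alone above the controls (0.47 ± 0.21). In fibrinolysis, Anxa2, whose product binds plasminogen at the cell surface, was at 98.3 to 119 CPM in control and 114 to 115 CPM in Notch3-/- mice. Plaur, the urokinase receptor gene, was at 2.12 to 4.43 CPM in control and 10.1, 6.73 and 1.89 CPM in Notch3-/- mice 1 to 3, with a log2 fold change of 0.79 ± 0.53. Of the 4 genes of this group that did not pass the filter, named here after their values were seen, 3 were higher in Notch3-/- mice 1 and 2 than in every control mouse, and Serpinb2, at 0 to 0.668 CPM in control and 0 to 0.273 CPM in Notch3-/- mice, was not. Serpinf2, the gene of the plasmin inhibitor antiplasmin, was at 0 to 2.32 CPM in control and 190, 524 and 1.70 CPM in Notch3-/- mice 1 to 3. Hrg, the histidine-rich glycoprotein gene, was at 0 to 0.843 CPM against 102, 298 and 1.51 CPM, and Cpb2, whose product slows fibrinolysis, at 0 to 0.632 CPM against 37.4, 130 and 0.189 CPM. The thrombin receptor gene F2r was at 56.1 to 82.1 CPM in control and 73.0, 102 and 81.7 CPM in Notch3-/- mice (0.37 ± 0.18).

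The genes that process clotting factors before secretion, broadly expressed ones, made up 4 of the 9 with an unadjusted p below 0.05. These were 4 of the 6 genes tested in this group, all higher, against 7.34% of all genes higher. Vkorc1, which recycles the vitamin K needed for gamma-carboxylation, was at 18.4 to 28.6 CPM in control and 48.6, 90.4 and 15.1 CPM in Notch3-/- mice 1 to 3. Its log2 fold change was 1.21 ± 0.46 (SE; edgeR, Benjamini-Hochberg adjusted p = 0.410), and mouse 3 was below every control mouse. In the other 3 (Lman1, Vkorc1l1 and Ggcx, named after their values were seen) every Notch3-/- mouse was above every control mouse, as in 4.57% of all genes tested. Lman1, which carries factors V and VIII out of the endoplasmic reticulum together with Mcfd2, was at 110 to 123 CPM in control and 168, 228 and 141 CPM in Notch3-/- mice 1 to 3 (log2 fold change 0.63 ± 0.17; edgeR, Benjamini-Hochberg adjusted p = 0.206; DESeq2 0.0171). Mcfd2, part of the cargo receptor for factors V and VIII, was at 130 to 171 CPM in control and 176, 243 and 166 CPM in Notch3-/- mice (0.34 ± 0.17), a difference that did not reach an unadjusted p of 0.05.

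**Figure D5:**
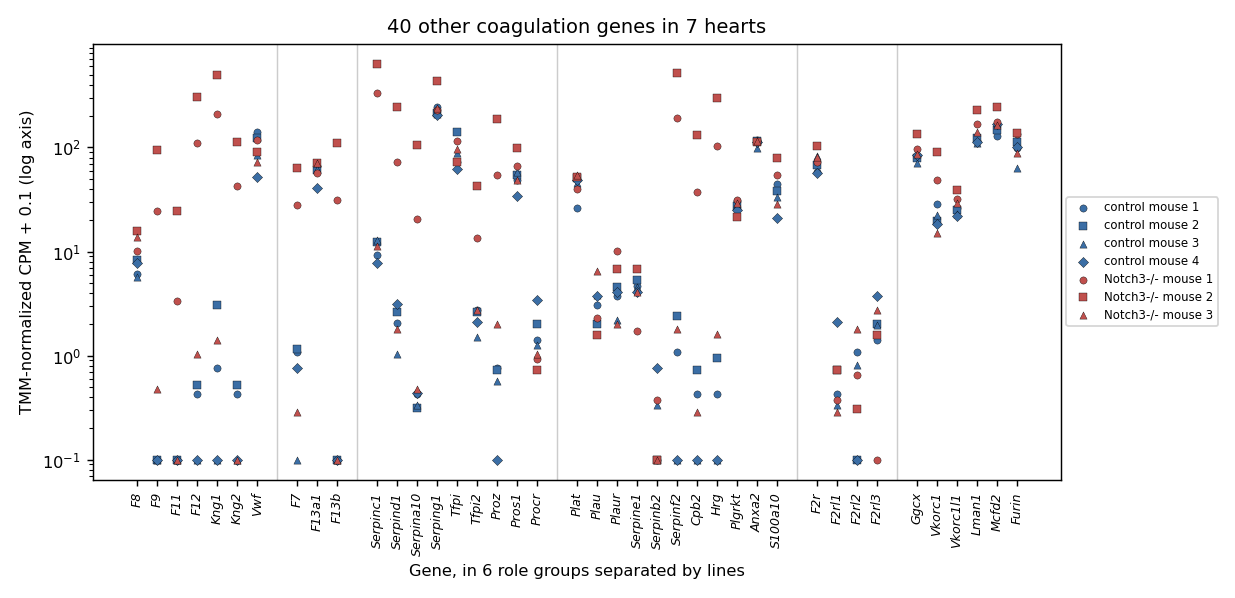
TMM-normalized CPM plus 0.1 (log axis) of 40 other coagulation genes in 6 role groups, from left to right intrinsic and contact, extrinsic and crosslinking, inhibitors, fibrinolysis, receptors and biosynthesis, for 4 control mice (blue) and 3 Notch3-/- mice (red). Some genes at a trace level in control mice, such as Kng1 and F9, are high in Notch3-/- mice 1 and 2 and not in mouse 3, others, such as Procr and F2rl3, stay low in all mice, and Vwf, F13a1 and Anxa2 group together in all 7 mice.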

How the data were processed

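RNA was measured in 21 libraries from 7 hearts. The authors deposited raw counts per gene, with no normalization; the submitters' processing notes name the build mm10 and CASAVA, and the labels describe cDNA amplified by 22 PCR cycles and read for 51 bases. The aligner, the counter and the handling of duplicate reads are not given in the sources used here. The reads carried no molecular identifiers, so intervals cover counting error only, and nothing says whether mice shared a litter.

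The 92 spike-in lines (34 counts in all) were left out, and 512 of the 46517 gene IDs were not in the GENCODE vM21 annotation used for symbols, positions and lengths. The 3 technical libraries of a mouse were summed, as in the study's methods. Counts were tested with edgeR 4.0.16 (filterByExpr, TMM, quasi-likelihood, genotype as the only term) in R 4.3.3, with the thresholds of the study's methods, which used DESeq2: an adjusted p below 0.05 and a fold of at least 1.5. The SE is the log2 fold change over the root of the F statistic. The tests were checked on simulated data, in which the changed genes were well counted and had the same fold in every mouse of a group. That check does not cover genes at a trace level in control mice and high in only some Notch3-/- mice. Alternatives were DESeq2 1.42.0, limma 3.58.1 voom, other scalings and filters, single technical libraries, mice with k names, and each mouse left out. All members were named, with the highest gene in control mice and the largest fold change among tested genes in each role group of the other genes; the members and lists were chosen with earlier results of these data known. Sequences came from RefSeq promoter windows (GRCm38.p6), and figures were drawn with matplotlib 3.10.9.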

Additional observations from a re-analysis of the deposited data

Results flagged for a closer look

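Control mouse 2 stood apart from the other 3 control mice for 3 genes by a gap larger than Dixon's 95% critical value for 4 samples, taken as a share of the group's range. It had 7.38 CPM of Fga (gap 0.830 of the range), 4.64 CPM of Fgb (0.928) and 4.21 CPM of F2 (0.922). The gap of Fga was only just over the limit. Chance flags about 1 in 20 groups, and these 3 genes shared their high and low mice, so they are not separate signs. In the same mouse the hepatocyte markers summed to 164 CPM, the highest of the control mice.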

How the results depend on the processing

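No paired analysis was possible because the numbers shared between groups are those of technical libraries, which were summed within each mouse. Of the genes called (1 in all), the members called (0) and the other coagulation genes with an unadjusted p below 0.05 (9), DESeq2 gave 601, 8 and 22, and every gene with at least 1 count gave 639, 8 and 22. A mean of at least 10 counts left 1 and 0 but gave 20 other genes, and limma-voom on mice gave 4 other genes. The mice with k names gave 0, 0 and 17, and voom on libraries with the mouse as a random term called 65 genes. Technical libraries 1, 2 and 3 alone gave 48, 39 and 77 genes called, 0 of 3, 2 of 4 and 2 of 4 members tested (0.418%, 0.321% and 0.634% of genes were called higher), and 5, 4 and 5 other genes. With 1 mouse left out, the genes called ranged from 1 to 936, the members from 0 to 8 and the other genes from 6 to 26, and each highest value was without Notch3-/- mouse 3. The filters with more genes tested also admit more members; the cause of the other differences was not tested. No member changed direction in the settings in which it was fitted, which were few for Proc, F10 and Plg because of the filter. The share of liver-made members among hepatocyte markers moved with the technical library, from 20.3% to 26.1% in Notch3-/- mouse 1. At 0 to 35 counts per control mouse, the level of the liver-made genes in controls is known only roughly.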
